A study of Mus musculus with 6 samples.

Results

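The interferon response genes examined here are 47 genes named by symbol: the receptors of type I and type II interferon, the transcription factors downstream of them, and genes that interferon induces. All 47 symbols matched 1 Ensembl gene each among the 35932 genes of the deposited count table. RNA sequencing was carried out on mouse bone marrow cells labelled as myeloid leukemic blasts of the genotype MLL-AF9+, which carry a fusion oncogene of acute myeloid leukemia. There were 3 libraries of chemotherapy-sensitive blasts, whose treatment is labelled vehicule, and 3 of chemotherapy-resistant blasts, labelled Cytarabin+Doxorubicin. The comparison asks how resistant blasts differ from sensitive ones. Resistance and exposure to both drugs coincided in all 6 libraries and cannot be told apart. The sources used here do not give strain, age, dose, harvest time or how the fusion was introduced. The labels do not say whether replicates came from separate mice, so a p-value here reflects only how far these libraries scatter, possibly for technical reasons. Sequencing depth ran from 22206341 to 31856009 counts. Values are counts scaled to a common library size (CPM) with TMM factors, which allow for composition, and changes are log2 fold changes of resistant over sensitive.

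Type I interferons bind a receptor made of IFNAR1 and IFNAR2, and interferon gamma binds IFNGR1 with IFNGR2. Janus kinases attached to these receptors phosphorylate transcription factors of the STAT family. In the type I response a complex that holds STAT2 and IRF9 binds a DNA element called the interferon-stimulated response element (ISRE), whereas interferon gamma acts through a second element, the gamma-activated site (GAS). The induced genes encode antiviral enzymes, membrane proteins that block virus entry, GTPases that attack intracellular microbes, and regulators that amplify or end the signal. In bone marrow the pathway is known to act on hematopoietic stem cells and on myeloid cells as well as in infection.

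In the resistant libraries the mRNA of the 4 interferon receptor genes and of Stat2, Irf1 and Irf2 was lower. The calls of Ifnar1, Ifngr2 and Irf2 were lost in some fits that left out 1 library. Among the best-known induced genes, Isg15, Usp18, Ifit1 and Rsad2 were scarce in both groups and did not pass the test. Mx1, scarce as well, was lower (1.70-fold). The largest falls were in the GTPase gene Gbp3 (2.35-fold) and the virus entry inhibitor gene Ifitm3 (2.27-fold). Samd9l (1.68-fold), Rtp4 (1.63-fold), Oas2 (1.61-fold) and Eif2ak2 (1.21-fold) rose. Of the 47 genes, 45 had enough counts to be tested, and 4 of these were higher, 16 lower and 25 did not pass with a threshold of 0.05 on the adjusted p in edgeR (quasi-likelihood F test on 13414 genes, p-values adjusted after Benjamini and Hochberg). The called share of 44.4% stood beside 39.2% of all tested genes. By direction, 35.6% of the tested interferon genes were lower against 20.8% of all tested genes, and 8.89% were higher against 18.5%. The groups did not overlap in 20 of the 45 genes (44.4%, against 52.4% of all tested genes). Resistant libraries were all below the sensitive ones in 16 of them, as in 27.2% of all tested genes, and all above in 4, as in 25.2%. The median log2 fold change of the 45 genes was -0.10, and that of all tested genes -0.0052. Without resistant library 1 the median of the 45 was 0.00041, and 23 of them had a positive value. Of the 45, Gbp3 and Ifitm3 changed by more than 2-fold. The count of lower genes dropped to 10 without sensitive library 1 and to 9 without sensitive library 2. In these fits the lower genes of the whole table dropped from 2785 to 2242 and 2015. The called share of all tested genes dropped from 39.2% to 31.3% and 26.5%. The count of higher genes rose to 7 without resistant library 1, while that of the whole table dropped from 2475 to 2208.

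**Figure D1:**
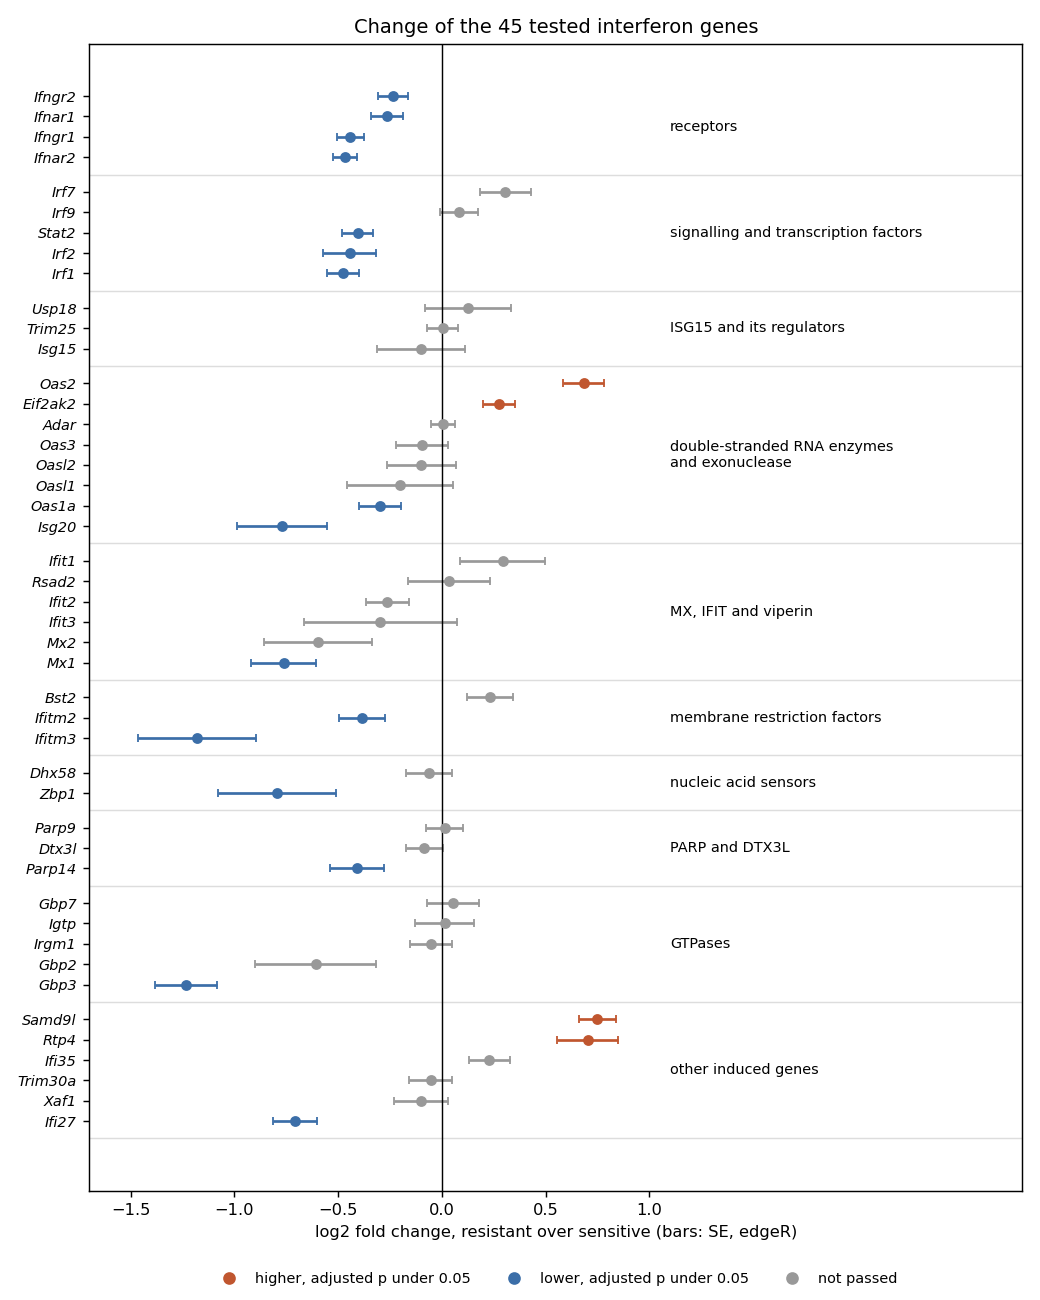
The horizontal axis gives the log2 fold change of resistant over sensitive blasts with its SE for each of the 45 tested genes, grouped by role. All 4 receptor genes and 3 of 5 transcription factor genes lie to the left of 0 as lower, and 4 genes (Oas2, Eif2ak2, Samd9l and Rtp4) lie to the right as higher.

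The 150 bases before the transcription start are shown for 9 of these genes, because this stretch is where the pathway is known to reach many of its targets; the choice includes genes that fell, rose or did not pass, and windows with and without the motifs. The windows come from RefSeq on build GRCm38.p6 and are written 5′ to 3′ on the gene's strand. Capitals mark the ISRE core, which is GAAA, any 2 bases and a second GAAA, and the GAS core TTCNNNGAA, each searched on both strands.
Isg15, chr4:156200819-156200968, minus strand: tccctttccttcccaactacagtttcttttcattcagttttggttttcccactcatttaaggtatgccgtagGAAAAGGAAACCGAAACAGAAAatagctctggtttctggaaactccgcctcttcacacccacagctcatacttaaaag
Gbp7, chr3:142530186-142530335, plus strand: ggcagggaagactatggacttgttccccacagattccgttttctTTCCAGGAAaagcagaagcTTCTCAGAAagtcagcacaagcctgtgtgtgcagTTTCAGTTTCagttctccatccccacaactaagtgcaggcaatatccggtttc
Gbp3, chr3:142559894-142560043, plus strand: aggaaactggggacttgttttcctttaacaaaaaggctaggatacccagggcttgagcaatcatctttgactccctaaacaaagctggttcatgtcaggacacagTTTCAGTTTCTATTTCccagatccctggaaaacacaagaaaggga
Gbp2, chr3:142620513-142620662, plus strand: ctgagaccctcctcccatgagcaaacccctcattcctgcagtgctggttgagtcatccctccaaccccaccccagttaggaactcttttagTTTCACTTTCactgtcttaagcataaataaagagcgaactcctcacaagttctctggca
Oas1a, chr5:120907526-120907675, minus strand: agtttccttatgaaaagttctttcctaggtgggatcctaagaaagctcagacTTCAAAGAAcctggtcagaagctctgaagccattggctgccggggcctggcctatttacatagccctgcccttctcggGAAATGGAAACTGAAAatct
Ifitm2, chr7:140955962-140956111, minus strand: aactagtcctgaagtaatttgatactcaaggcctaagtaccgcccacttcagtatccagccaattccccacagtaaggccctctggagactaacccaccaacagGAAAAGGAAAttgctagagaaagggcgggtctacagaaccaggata
Irf1, chr11:53769864-53770013, plus strand: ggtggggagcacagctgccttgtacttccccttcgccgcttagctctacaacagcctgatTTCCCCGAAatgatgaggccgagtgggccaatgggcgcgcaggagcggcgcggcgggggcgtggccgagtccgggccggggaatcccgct
Ifngr1, chr10:19591799-19591948, plus strand: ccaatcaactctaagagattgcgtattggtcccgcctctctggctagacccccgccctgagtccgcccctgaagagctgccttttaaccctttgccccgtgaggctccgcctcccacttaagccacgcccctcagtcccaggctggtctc
Samd9l, chr6:3399572-3399721, minus strand: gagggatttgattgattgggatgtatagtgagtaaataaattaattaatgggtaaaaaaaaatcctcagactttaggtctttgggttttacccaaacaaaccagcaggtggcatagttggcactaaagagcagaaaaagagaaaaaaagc
The Isg15 window held 3 overlapping copies of the ISRE core, and those of Gbp3 and Oas1a held 2 overlapping copies each. Gbp7, Gbp2 and Ifitm2 had 1 copy. Irf1 had a GAS core and no ISRE core. The windows printed for Ifngr1 and Samd9l had neither.

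RefSeq promoter windows, which reach from 250 bases before the start to 50 after it, were matched by symbol for 37 of the 47 genes. The ISRE core was found in 18 of these 37 (48.6%, exact 95% binomial interval 31.9% to 65.6%), and in 3.99% of the 27025 genes with a window. The GAS core was found in 14 (37.8%, interval 22.5% to 55.2%), against 9.55% of all genes with a window. Both motifs stood in 7 of the 46 windows of these genes, and they overlapped in 2. Among the lower genes with a window, 6 of 12 had the ISRE core, as did 1 of the 2 higher genes and 11 of the 21 that did not pass. The GAS core was present in 7 of the 12 lower genes, in 1 of the 2 higher genes and in 6 of the 21 that did not pass. These counts describe letters in a window, and the difference between the classes was not tested.

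All 4 receptor genes were lower in resistant blasts, with no overlap between the groups. Of all tested genes, 20.8% were lower, and in 27.2% every resistant library lay below every sensitive one. Ifnar2, the subunit that binds type I interferon with high affinity, had 102, 100.4 and 91.8 CPM in the sensitive and 69.5, 72.2 and 71.0 CPM in the resistant libraries (-0.47 ± 0.06 SE, edgeR adjusted p = 0.000183). Every resistant library lay below every sensitive one, and the resistant values lay close together (SD 1.35 CPM). Ifngr1, the ligand-binding chain for interferon gamma, had 391, 446 and 427 CPM in the sensitive and 288, 321 and 322 CPM in the resistant libraries (-0.44 ± 0.07 SE, edgeR adjusted p = 0.000526). Here too the groups were separate. Ifnar1, the other type I chain, had 84.7, 79.4 and 75.1 CPM in the sensitive and 72.8, 65.5 and 60.6 CPM in the resistant libraries (-0.26 ± 0.08 SE, edgeR adjusted p = 0.0200). Ifngr2, the signalling partner of IFNGR1, had 57.3, 54.0 and 49.7 CPM in the sensitive and 46.8, 43.6 and 46.4 CPM in the resistant libraries (-0.24 ± 0.07 SE, edgeR adjusted p = 0.0242). The gaps between the groups were narrow in these last genes: the lowest sensitive library exceeded the highest resistant one by little in Ifnar1 (75.1 against 72.8 CPM) and in Ifngr2 (49.7 against 46.8 CPM). Their calls were lost in 4 and 3 of the 6 fits that left out 1 library, with adjusted p up to 0.0818 for Ifnar1 and 0.0887 for Ifngr2 over 14 alternatives. The call of Ifnar1 depended on sensitive libraries 1 and 2 and resistant libraries 2 and 3, and that of Ifngr2 on sensitive libraries 1 and 2 and resistant library 2. Per kilobase of exon, Ifngr1 stood far above the others in sensitive blasts (199 CPM per kilobase), followed by Ifnar2 (30.9), Ifnar1 (20.4) and Ifngr2 (14.5), and resistant blasts kept this order (147, 22.3, 17.0 and 12.3).

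Ifnar2, Ifnar1 and Ifngr2 are near neighbours on chromosome 16, whereas Ifngr1 lies on chromosome 10. In bulk RNA, fewer cells of a type and less RNA per cell cannot be told apart. Markers of mature neutrophils moved in the same libraries: 7 of 7 were lower, beside 20.8% of all tested genes. Their summed level went from 124 to 147 CPM in sensitive to 22.4 to 41.2 CPM in resistant libraries. Of 6 erythroid markers the 5 tested were lower, and the sum went from 43.5 to 76.0 CPM to 0.157 to 1.55 CPM. Among 4 conventional dendritic cell markers, whose sum went from 13.2 to 17.1 CPM to 2.50 to 2.81 CPM, Itgax fell (means of 13.1 and 1.04 CPM), Xcr1 did not pass (1.22 and 1.47 CPM), Clec9a had 0 to 10 counts and Cd209a 0 counts in each library. The 4 tested of 5 macrophage markers did not pass, and the list's sum, nearly all of it Adgre1, was 125 to 149 CPM in sensitive and 127 to 166 CPM in resistant libraries. The part of these cells in the lower receptor mRNA, and in each lower gene described below, was not tested. The only tested NK cell marker, Prf1, was lower (means of 0.674 and 0.121 CPM). Of the megakaryocyte markers, Gp1ba was higher (2.01 and 4.72 CPM) and Itga2b lower (8.29 and 5.10 CPM). The tested B cell and stroma markers did not pass. The 5 T cell markers summed to 3.13 to 4.51 CPM in sensitive and 1.76 to 2.73 CPM in resistant libraries; Cd8a, the only one tested, was lower, and Cd3e and Cd3g had at most 1 count in a library. Of 4 plasmacytoid dendritic cell markers, Tcf4 was lower (means of 266 and 233 CPM), while Siglech, a surface lectin gene of these cells, had 10 to 19 counts in sensitive and 0 to 4 counts in resistant libraries, and Ccr9 and Ly6d had 0 to 10 counts. Of the 6 blast markers, which summed to 3416 to 3810 CPM in sensitive and 3258 to 3868 CPM in resistant libraries, Hoxa9, Cd34 and Ctsg were higher, Kit was lower, and Mpo and Meis1 did not pass.

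**Figure D2:**
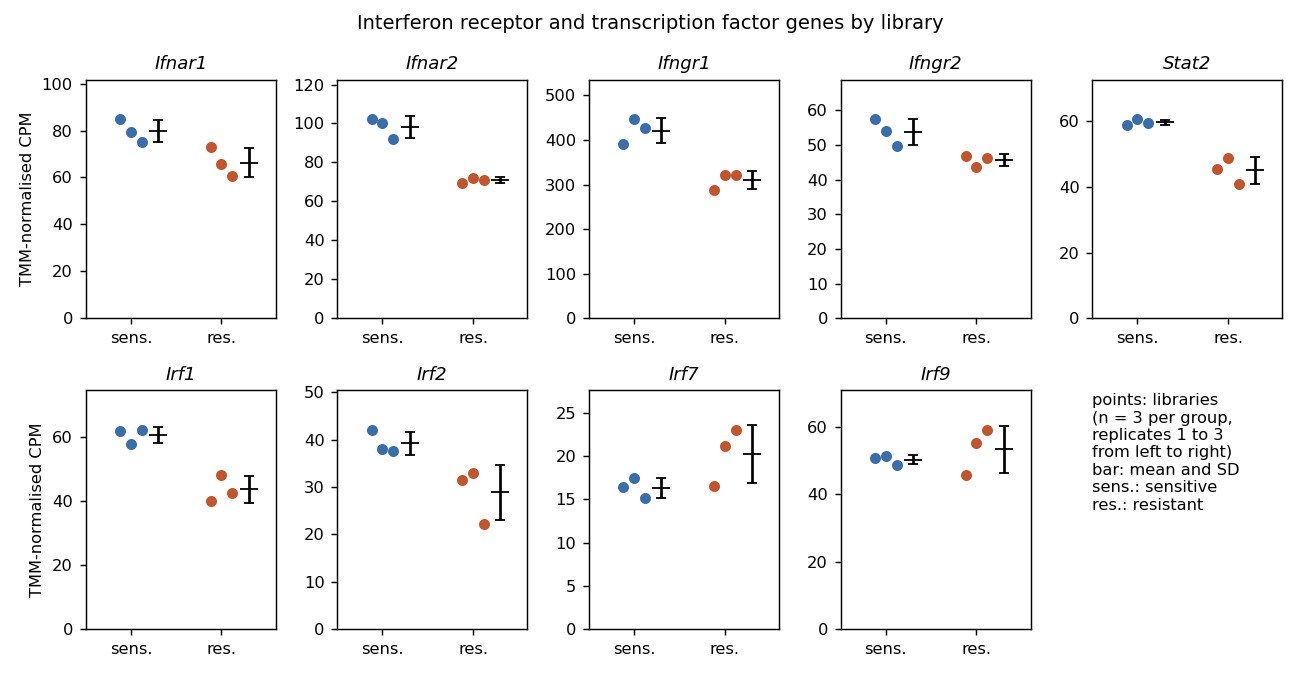
Each panel shows the CPM of 1 gene in the 3 sensitive and 3 resistant libraries, with mean and SD, on an axis that starts at 0. The groups are separate in the 4 receptor genes, Stat2, Irf1 and Irf2, and overlap in Irf7 and Irf9.

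Among the transcription factor genes the result differed by gene. Irf1, an activator that interferon gamma induces, had 61.8, 57.7 and 62.1 CPM in the sensitive and 40.1, 48.2 and 42.5 CPM in the resistant libraries (-0.48 ± 0.08 SE, edgeR adjusted p = 0.000931). Irf2, which is known to oppose IRF1 at shared sites, had 42.0, 38.1 and 37.6 CPM in the sensitive and 31.5, 32.9 and 22.2 CPM in the resistant libraries (-0.44 ± 0.13 SE, edgeR adjusted p = 0.0188), and resistant library 3 was the lowest of all 6. The call of Irf2 was lost without sensitive library 1 (adjusted p = 0.0756). Stat2, a transcription factor gene of the type I response, had 58.9, 60.6 and 59.6 CPM in the sensitive and 45.5, 48.9 and 40.8 CPM in the resistant libraries (-0.41 ± 0.07 SE, edgeR adjusted p = 0.00172). Its sensitive values were almost equal, and each resistant value lay below them. The remaining pair of genes did not pass. Irf9, the DNA-binding partner of STAT2, had 50.8, 51.5 and 48.8 CPM in the sensitive and 45.8, 55.3 and 59.1 CPM in the resistant libraries (0.08 ± 0.09 SE, edgeR adjusted p = 0.499). Irf7, the factor that amplifies type I interferon production, had 16.4, 17.5 and 15.2 CPM in the sensitive and 16.6, 21.1 and 23.0 CPM in the resistant libraries (0.31 ± 0.12 SE, edgeR adjusted p = 0.0711). Resistant library 1 lay within the sensitive range in Irf7 and below it in Irf9, while resistant libraries 2 and 3 lay above it in both genes. Irf7 passed when no low-count filter was used and when resistant library 1 was left out (adjusted p = 0.00989; highest over 14 alternatives 0.217).

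Other components of the signalling chain were taken from a wider list of kinases and feedback regulators. Of its 10 tested genes, 1 was lower (10%), 1 was higher (10%), and 8 did not pass. Of all tested genes, 20.8% were lower and 18.5% higher, the shares that stand beside each list and gene group below. The kinase genes Jak1 (0.10 ± 0.05 SE), Jak2 (0.02 ± 0.07 SE) and Tyk2 (-0.14 ± 0.05 SE) had edgeR adjusted p-values of 0.135, 0.827 and 0.0616. Pias1, an inhibitor of STAT signalling, fell by 0.28 on the log2 scale, and the phosphatase gene Ptpn2, another brake on the pathway, rose by 0.19. Of 9 tested further interferon regulatory factors and partners, 1 was higher (11.1%), 5 were lower (55.6%) and 3 did not pass. Irf8, a factor of monocyte and dendritic cell development, had 95.2, 81.1 and 72.0 CPM in the sensitive and 41.2, 40.6 and 33.8 CPM in the resistant libraries (-1.10 ± 0.11 SE, edgeR adjusted p = 3.02e-05). It fell more than any receptor or factor gene of the 47. The neutrophil markers and Itgax fell in the same libraries, while Xcr1 and the tested macrophage markers did not pass. Irf2bp2 (-0.34) and Batf (-0.37) fell too, and Irf5, a factor of inflammatory cytokine genes, rose by 0.37.

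The interferon genes that could be matched were almost undetected. Of 10 interferon genes matched in the table, among them Ifnb1 and Ifng, 8 had 0 counts in all 6 libraries. The others were Ifnk, with 2 counts, and Ifna13, with 1 count over all libraries. A floor of 3 counts corresponds to 0.0945 to 0.136 CPM, for counting error only. The list named 20 interferon genes. Those without a match by symbol, all of type I, could not be assessed.

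ISG15 is a ubiquitin-like protein that interferon induces and that conjugation enzymes attach to other proteins. USP18 removes it and also shuts off the receptor, and TRIM25 is a ubiquitin ligase of RNA sensing. None of the 3 genes passed in edgeR, DESeq2 or limma-voom, and 0 had an unadjusted p under 0.05 in edgeR. Isg15 had 4.26, 3.96 and 3.21 CPM in the sensitive and 2.58, 4.32 and 3.82 CPM in the resistant libraries (-0.10 ± 0.21 SE, edgeR adjusted p = 0.735). Usp18 had 3.37, 2.86 and 2.28 CPM in the sensitive and 2.55, 3.50 and 3.27 CPM in the resistant libraries (0.13 ± 0.21 SE, edgeR adjusted p = 0.657). In both genes resistant library 1 was the lowest of its group, and sensitive library 3 the lowest of the sensitive group. Trim25 was more abundant, with a mean of 71.2 ± 5.31 CPM in the sensitive and 71.4 ± 4.90 CPM in the resistant group (SD, n = 3 each). Of 6 genes for ISG15 conjugation enzymes (Uba7, Ube2l6 and Herc6) and related HERC ubiquitin ligases (Herc2, Herc3 and Herc4), 1 was lower, 5 did not pass and 0 were higher; the lower one was Uba7, the activating enzyme, with 82.4, 86.1 and 86.9 CPM in the sensitive and 58.5, 70.1 and 62.3 CPM in the resistant libraries (-0.42 ± 0.07 SE, edgeR adjusted p = 0.00116).

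Enzymes that recognise or edit double-stranded RNA moved in both directions: of 8 genes, with the exonuclease gene Isg20, 2 were higher, 2 lower and 4 did not pass. Oas2, an oligoadenylate synthetase that triggers RNase L, rose, with 17.4, 22.5 and 20.1 CPM in the sensitive and 30.3, 32.7 and 33.4 CPM in the resistant libraries (0.68 ± 0.10 SE, edgeR adjusted p = 0.000438). Eif2ak2, which encodes the kinase PKR that halts translation, rose less, with 73.3, 71.0 and 64.7 CPM in the sensitive and 87.1, 75.9 and 90.0 CPM in the resistant libraries (0.28 ± 0.08 SE, edgeR adjusted p = 0.0157). All resistant values lay above all sensitive ones in both genes, but the call of Eif2ak2 was lost without sensitive library 3 (adjusted p = 0.0772). Oas1a, a smaller synthetase, had 61.5, 64.0 and 59.3 CPM in the sensitive and 41.6, 56.6 and 52.4 CPM in the resistant libraries (-0.30 ± 0.10 SE, edgeR adjusted p = 0.0369). Its call was lost in 5 of the 6 fits that left out 1 library (all but that without resistant library 2; adjusted p up to 0.121 over 14 alternatives). Isg20 had 3.13, 3.92 and 3.24 CPM in the sensitive and 1.48, 2.37 and 2.22 CPM in the resistant libraries (-0.77 ± 0.22 SE, edgeR adjusted p = 0.0173), and its call was lost without sensitive library 2 or resistant library 1 (adjusted p up to 0.0760). Oas3 (-0.10), Oasl1 (-0.20), Oasl2 (-0.10) and Adar (0.00), the RNA editing enzyme gene, did not pass. Oas2 and Oas3 are neighbours on chromosome 5, where Oas1a also lies, and their log2 fold changes of 0.68, -0.10 and -0.30 differed in sign; the differences between these genes were not tested. Members of the OAS family resemble each other, and how shared reads were counted is not given. Of 5 tested other OAS genes and RNase L partners, 2 were higher and 3 did not pass; Oas1c rose by 0.42 and Abce1, an inhibitor of RNase L that also recycles ribosomes, by 0.35.

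Mx1, a GTPase gene against influenza-type viruses, was the only gene past the test among 6 MX, IFIT and viperin genes. It had 5.98, 6.54 and 5.64 CPM in the sensitive and 2.99, 3.68 and 4.05 CPM in the resistant libraries (-0.76 ± 0.16 SE, edgeR adjusted p = 0.00347), with separate groups. Mx2, its neighbouring paralog, had 1.20, 1.45 and 1.47 CPM in the sensitive and 0.819, 0.773 and 1.13 CPM in the resistant libraries, a 1.51-fold difference that did not pass (edgeR adjusted p = 0.0913). Both genes were low, and reads shared between them could not be assigned here. Ifit2, whose product binds viral RNA, had 23.0, 23.4 and 22.7 CPM in the sensitive and 17.5, 17.7 and 22.4 CPM in the resistant libraries (-0.26 ± 0.10 SE, edgeR adjusted p = 0.0678). The test was passed with library totals as scaling and when resistant library 3 was left out (adjusted p = 0.00816), and its adjusted p reached 0.201 over 14 alternatives. Ifit1 (0.29 ± 0.21 SE), Ifit3 (-0.30 ± 0.37 SE) and the viperin gene Rsad2 (0.03 ± 0.20 SE) had edgeR adjusted p-values of 0.284, 0.554 and 0.909 at means of 1.12 to 3.31 CPM. Ifit2, Ifit3 and Ifit1 lie in 1 gene cluster on chromosome 19.

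IFITM proteins and tetherin hold back viruses at cell membranes. Ifitm3 fell, with 2.13, 2.82 and 1.99 CPM in the sensitive and 0.661, 1.18 and 1.25 CPM in the resistant libraries (-1.18 ± 0.28 SE, edgeR adjusted p = 0.00797), and resistant library 1 was the lowest. Ifitm2 had 38.5, 46.8 and 52.1 CPM in the sensitive and 38.9, 33.4 and 32.6 CPM in the resistant libraries (-0.39 ± 0.11 SE, edgeR adjusted p = 0.0189). Its groups overlapped, since sensitive library 1 lay just below resistant library 1, and its call was lost without sensitive library 2 or 3 or without resistant library 2 or 3 (adjusted p up to 0.0849). Ifitm1, which stands between these genes on chromosome 7, had 0 to 3 counts in each library and was not tested. The IFITM genes are close paralogs, so reads could be split between them. Bst2, the tetherin gene, had 36.7, 39.5 and 32.4 CPM in the sensitive and 36.2, 42.4 and 49.0 CPM in the resistant libraries (0.23 ± 0.11 SE, edgeR adjusted p = 0.125), and passed as higher without resistant library 1 (adjusted p = 0.0296; highest over 14 alternatives 0.395). Ifitm6, from the wider list, fell from 0.773 ± 0.127 to 0.110 ± 0.0755 CPM.

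Of the nucleic acid sensors, Zbp1, which triggers necroptosis on Z-form nucleic acid, had 5.88, 4.31 and 3.65 CPM in the sensitive and 1.64, 3.78 and 2.69 CPM in the resistant libraries (-0.79 ± 0.28 SE, edgeR adjusted p = 0.0466). The groups overlapped, and the call was lost with the replicate number as a block and in the fits that omitted sensitive library 1 or 2 or resistant library 1 or 3 (adjusted p up to 0.186). Dhx58, a helicase of the RIG-I family, did not pass (-0.06 ± 0.11 SE, edgeR adjusted p = 0.696). Parp14, a mono-ADP-ribosyltransferase gene, had 23.7, 21.8 and 16.9 CPM in the sensitive and 14.0, 16.1 and 16.9 CPM in the resistant libraries (-0.41 ± 0.13 SE, edgeR adjusted p = 0.0281). Its neighbours on chromosome 16, Dtx3l and Parp9, which encode partners in 1 ubiquitin ligase complex, had log2 fold changes of -0.08 and 0.01 and did not pass. The call of Parp14 was lost without sensitive library 1 or 2 or resistant library 1 or 2 (adjusted p up to 0.114).

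Among the GTPases of cell-autonomous defence, Gbp3 was the only one of 5 to pass. It had 70.6, 65.1 and 60.2 CPM in the sensitive and 20.1, 32.3 and 31.2 CPM in the resistant libraries (-1.24 ± 0.15 SE, edgeR adjusted p = 0.000128). The lowest sensitive library held 60.2 CPM against at most 32.3 CPM in a resistant one, and the call held in all 14 alternatives. Gbp7 (0.05 ± 0.12 SE, edgeR adjusted p = 0.761) and Gbp2 (-0.61 ± 0.29 SE, edgeR adjusted p = 0.122) lie in the same cluster on chromosome 3 and did not pass, and the difference between the neighbours was not tested. Each of the 3 had an ISRE core in the window shown above. In Gbp2 the resistant libraries spread 2.53-fold, from 2.52 CPM in library 1 to 6.37 CPM in library 2. With no low-count filter or with library 2 left out, the fall of Gbp2 met the threshold (adjusted p = 0.00603, and up to 0.362 over 14 alternatives). Igtp (0.01) and Irgm1 (-0.05), immunity-related GTPase genes, did not pass. Of 5 tested other guanylate-binding and immunity-related GTPase genes, 2 were lower and 3 did not pass; the lower genes were Ifi47 (-0.69) and Tgtp2 (-1.40), the latter from a few CPM and with a near-identical copy, Tgtp1.

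Of the 7 other induced genes, 1 was lower and 2 were higher, while 3 did not pass and 1 was not tested. Samd9l, which encodes a regulator of endosomes and translation that restrains growth of myeloid cells, had 48.2, 61.0 and 57.2 CPM in the sensitive and 96.0, 98.4 and 85.3 CPM in the resistant libraries (0.75 ± 0.09 SE, edgeR adjusted p = 0.000118). Rtp4, a chaperone gene of G protein-coupled receptors, had 6.22, 7.13 and 6.15 CPM in the sensitive and 8.50, 11.0 and 12.3 CPM in the resistant libraries (0.70 ± 0.15 SE, edgeR adjusted p = 0.00398). Both genes were higher in each resistant library than in any sensitive one. Ifi27, a mitochondrial protein gene, fell, with 73.2, 72.1 and 58.6 CPM in the sensitive and 35.9, 43.6 and 45.5 CPM in the resistant libraries (-0.71 ± 0.11 SE, edgeR adjusted p = 0.000561). Ifi35 had 35.0, 38.6 and 38.1 CPM in the sensitive and 37.3, 49.1 and 45.0 CPM in the resistant libraries (0.23 ± 0.10 SE, edgeR adjusted p = 0.0872), and passed as higher without resistant library 1 (adjusted p = 0.0103) and with the replicate number as a block, with an adjusted p of up to 0.254 over 14 alternatives. Trim30a (-0.05) and Xaf1 (-0.10) did not pass. Ifi44 had 0 to 5 counts in each library and was not tested.

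Per kilobase of exon the set spanned a wide range in sensitive blasts. After Ifngr1, the highest levels were those of Ifitm2 (69.9 CPM per kilobase), Ifi27 (66.3), Bst2 (45.7), Oas1a (32.7) and Ifnar2 (30.9). The values of Oas1a and Ifnar2 overlapped between libraries, and so did those of Ifitm2 and Ifi27. Isg15 (5.04), Mx1 (1.79), Oasl2 (1.66), Usp18 (1.60), Oasl1 (1.10), Ifit1 (1.01), Rsad2 (0.814), Ifit3 (0.774) and Mx2 (0.568), which are among the best-known induced genes, stood far lower. Among the genes that did not pass, the Irf genes aside, the 6 most abundant per kilobase over all libraries were Bst2 (49.7), Ifi35 (29.8), Adar (16.8), Irgm1 (14.5), Trim30a (13.3) and Trim25 (12.4).

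**Figure D3:**
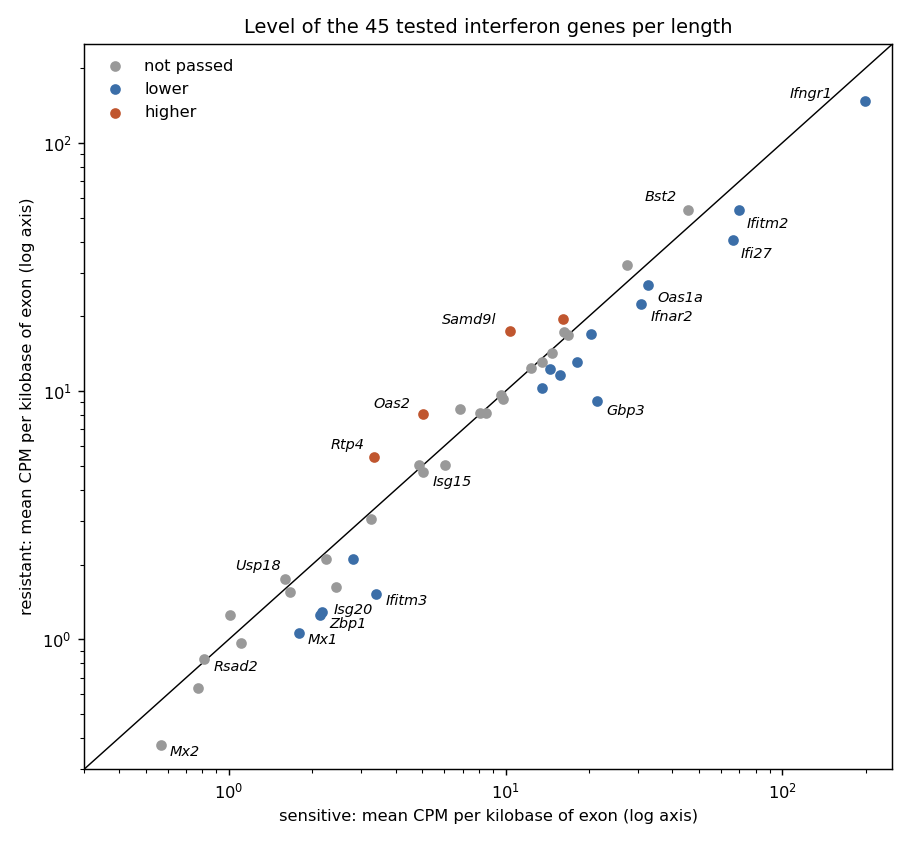
Both log axes give the mean CPM per kilobase of exon, in sensitive blasts (horizontal) and resistant blasts (vertical), for the 45 tested genes, and the diagonal marks equal levels. Gbp3 and Ifitm3 lie farthest below the diagonal, Samd9l, Oas2 and Rtp4 above it, and Isg15, Usp18 and Rsad2 near it at low levels.

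Within each group the genes followed the library. Resistant library 1 was the lowest of its group in 35 of the 45 tested genes, against 33.2% of all tested genes, and sensitive library 3 was the lowest of its group in 34, against 33.5%. The highest sensitive value came from library 1 in 23 genes and from library 2 in 19, against 40.6% and 27.3% of all tested genes. Measured from the mean of their own group, the genes had a median deviation of -0.19 in resistant library 1, 0.07 in library 2 and 0.10 in library 3 on the log2 CPM scale, and of 0.06, 0.04 and -0.10 in sensitive libraries 1, 2 and 3. Over all tested genes these medians lay between -0.0022 and 0.0052. The median SD between libraries of a group was 0.173 on the log2 CPM scale for these genes and 0.114 for all tested genes. The sets were not matched for level. Among these genes the SD was 0.566 in Ifit3, with group means of 1.35 and 1.12 CPM, and 0.0613 in Ifnar2, with 98.1 and 70.9 CPM. Resistant library 1 was also the deepest, with 31856009 counts, and sensitive library 3 was the deepest of its group, with 30695602. The part of depth in this pattern was not tested. Without resistant library 1 the median log2 fold change of the tested genes was 0.00041 in place of -0.10, and 23 of 45 had a positive value in place of 16. Without both sensitive library 3 and resistant library 1, a choice made after the values were seen, 5 genes were higher and 13 lower, and 26.3% of all genes tested in that fit were called.

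**Figure D4:**
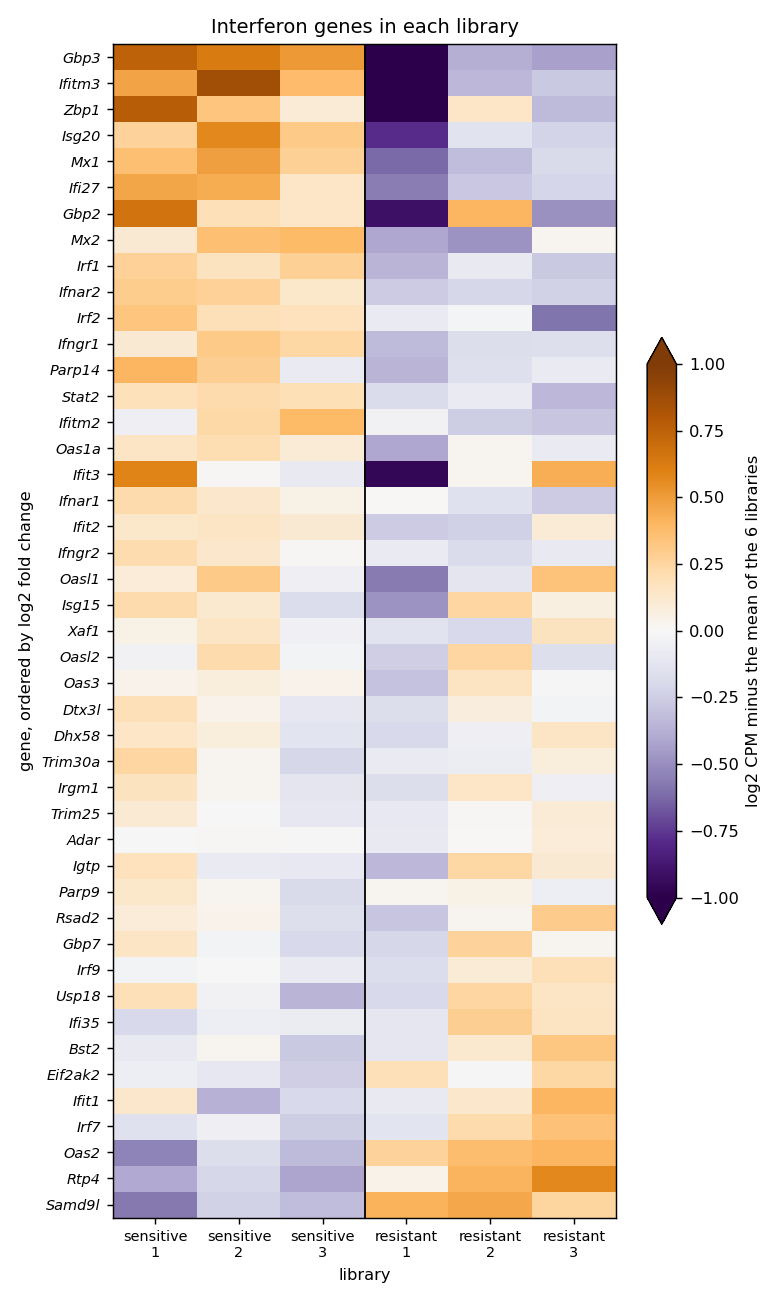
Columns are the 6 libraries and lines the 45 tested genes, ordered by log2 fold change; colour gives log2 CPM minus the mean over the 6 libraries, from purple (lower) to orange (higher). Resistant library 1 is darker purple than the other resistant libraries in many lines, and sensitive library 3 is paler or lower than the other sensitive libraries.

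A wider list of other interferon-stimulated genes gave 9 higher, 20 lower and 26 not passing among 55 tested. The higher share was 16.4% and the lower share 36.4%, beside 18.5% and 20.8% of all tested genes, and the median log2 fold change was -0.10, beside -0.0052. The genes with the smallest adjusted p were the Schlafen genes Slfn4 and Slfn2, the antiviral helicase gene Znfx1 and the membrane protein gene Ms4a6b. Slfn4 had 132, 154 and 164 CPM in the sensitive and 39.1, 38.8 and 44.2 CPM in the resistant libraries (-1.88 ± 0.09 SE, edgeR adjusted p = 1.85e-07). Slfn2 (-1.75 ± 0.09 SE), Znfx1 (-1.25 ± 0.08 SE) and Ms4a6b (-1.25 ± 0.09 SE) were lower as well, with edgeR adjusted p-values of 3.73e-07, 1.75e-06 and 3.13e-06. The other Schlafen genes of the list differed in direction. Slfn1 (-1.20) was lower, Slfn5 (0.82), Slfn3 (0.35) and Slfn9 (0.18) were higher, and Slfn8 (-0.21) did not pass. Among the higher genes of the list, Plscr1 had the smallest adjusted p (0.63 ± 0.08 SE, edgeR adjusted p = 0.000172). The neutrophil markers given above were lower in the same libraries, and the part of those cells was not tested.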

How the data were processed

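The authors deposited whole-number counts per Ensembl gene for the 6 libraries, without apparent normalisation. TopHat2, RSEM and the build mm9 appear in the submitters' processing notes, with no versions or roles; the sources used here do not give annotation, strand setting or treatment of shared reads. All 6 columns matched 1 sample by title, and 0 were left unused. Symbols, chromosomes and exon lengths came from GENCODE M21, a later build than the authors used; 31636 IDs matched. Counts were filtered with filterByExpr, scaled by TMM and tested in edgeR 4.0.16 (R 4.3.3, quasi-likelihood F test, design of group only), and p-values of 13414 genes were adjusted by Benjamini-Hochberg. The common dispersion was 0.00700, a coefficient of variation of 8.37% between libraries. The fit was tested on simulated data. Pairs of libraries within a group differed by more than sampling noise (chi-square per degree of freedom 3.88 to 13.5), so none was treated as a copy of another. Each was entered as 1 replicate, but this value cannot tell separate mice from separate preparations of the same cells. Per-kilobase levels divide CPM by the exon length.

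The genes and lists were chosen with earlier results of these data known. Values in every library are given for the receptors, Stat2, the Irf genes and other listed genes past the test or with separate groups and a fold of at least 1.5; from wider lists, up to 4 genes with the smallest adjusted p are named, with the Janus kinases; 1 further gene is not reported here; other genes named from them, among them Ifitm6, were chosen after their values were seen. Alternatives were other scalings, DESeq2 1.42.0, limma-voom (limma 3.58.1), other filters, the replicate number as a block and each library left out.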

Additional observations from a re-analysis of the deposited data

How the results depend on the processing

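With every change of scaling, test or low-count filter, 4 or 5 of the interferon genes were higher and 16 or 17 lower; without a low-count filter, 47 rather than 45 were tested. Leaving out 1 library in turn gave 3 to 7 higher and 9 to 14 lower interferon genes, and 1641 to 2521 higher and 2015 to 2711 lower genes in the whole table. Without both sensitive library 3 and resistant library 1, added after seeing the data, the whole table had 1589 higher and 1931 lower genes. With the replicate number as a block, 5 interferon genes were higher and 15 lower, and 2497 and 2824 genes in the whole table; Zbp1 lost its call and Ifi35 gained one. Samples that share a number did not deviate together (correlations of 0.04, -0.01 and -0.09 across genes), so the numbers were not taken as pairs. An ISRE core followed by CT was found in 27.0% of the interferon genes with a window, against 0.303% of all genes with one, and the longer GAS spelling TTCCNGGAA in 10.8% against 1.35%. Genes of a few CPM, such as Ifit3 and Mx2, had wide errors (SE 0.37 and 0.26 on the log2 scale).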
